A study of Mus musculus with 6 samples.

Results

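This account covers 43 genes that act in DNA replication and mitosis, chosen by symbol, in the prostates of 3 AR3 transgenic mice and 3 wild-type littermates, all 4 weeks old. AR3 is a splice variant of the androgen receptor that lacks the ligand-binding domain. No label gives the promoter that drives the transgene, the founder line or the strain, and each mouse supplied 1 array. Of the 43 genes, 42 were measured among 19938 genes with a usable probe set, namely 17 replication genes and all but 1 of 26 mitosis genes. The mitotic cyclin Ccnb1 had no probe set with that symbol in the annotation used, and is not analysed here.

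A cell that divides copies its DNA in S phase and separates the copies in mitosis, and the genes for these steps are mostly silent in resting cells. Transcription factors of the E2F family, held back by the retinoblastoma proteins, drive the genes of S phase. The genes of mitosis are switched on later by the Myb and FoxM1 factors. Promoters of these genes often carry a CCAAT box and a cell cycle homology region (CHR). In the mouse prostate, ducts branch and epithelial cells divide under androgen in the weeks around puberty, and division slows as the gland matures, so whole-gland levels of these transcripts are commonly read as a measure of how many cells are cycling. In bulk tissue, fewer cycling cells and less RNA per cycling cell cannot be told apart.

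No gene of DNA replication or mitosis passed the threshold between the genotypes. By limma, 0 of 42 had an adjusted p of 0.05 or less, against 1.64% of all genes. At an unadjusted p under 0.05 there were 5 (thymidine kinase Tk1 and the helicase subunit Mcm7 higher, the cytokinesis scaffold Anln, the spindle checkpoint kinase Bub1b and the mitotic kinase Cdk1 lower in transgenic prostates), against 12.2% of all genes. The replication genes had a median log2 change of −0.001, transgenic minus wild-type, with 8 above and 9 below 0. The mitosis genes had a median of −0.06, with 11 above and 14 below, and all genes a median of 0.01. For 41 of the 42 genes the change was smaller than 0.5 in either direction on the log2 scale. The exception was Anln at −0.80.

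The intervals bound the size of these changes in array signal. By the background scale defined below, 2 of 17 replication and 11 of 25 mitosis genes were above background on no array. Intervals of such genes bound a signal near background more than the transcript. The 95% interval of the log2 change lay wholly within 1 of 0 for 41 of 42 members, all but Anln. It lay wholly within 0.5 of 0 for 35, made up of 16 of 17 replication genes and 19 of 25 mitosis genes, while 83.0% of all genes met the same bound. Genotypes did not overlap for 7 members, 4 higher and 3 lower in transgenic mice, where 19.1% of all genes showed such a separation, 10.5% higher and 8.61% lower. The 4 were Tk1, Mcm7, Mcm6 and Mcm3, all replication genes, and the 3 were Anln, Bub1b and the ribonucleotide reductase subunit Rrm2.

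**Figure D1:**
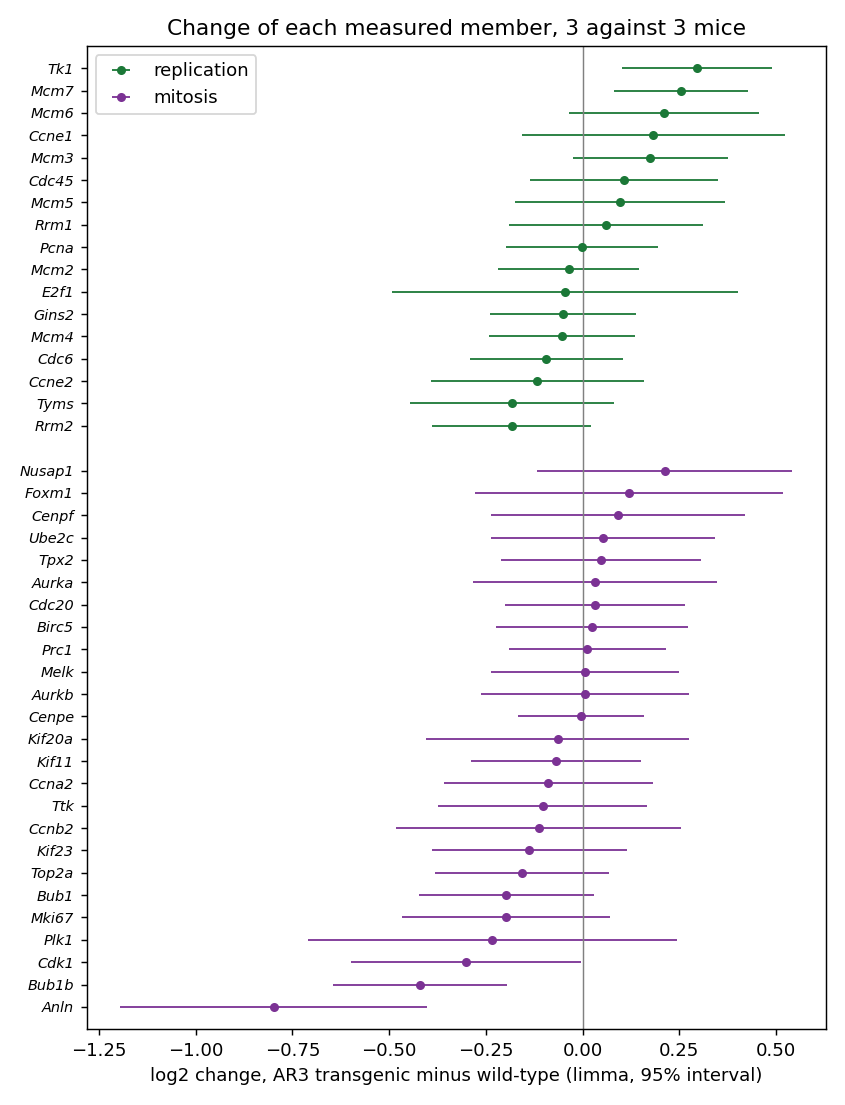
Each point is the log2 change of 1 member, AR3 transgenic minus wild-type, on log2(intensity + 16), and each bar is its 95% interval from limma, with 17 replication genes above and 25 mitosis genes below. Most intervals span 0, and the intervals of Tk1, Mcm7, Cdk1, Bub1b and Anln do not, Anln lying farthest from 0 at −0.80.

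The promoters of 4 of the 5 genes with the smallest p are shown because they carry the elements named above to different degrees, and Tk1 was left out because its probe sets disagreed. Each runs 5′ to 3′ over the 250 bases before 1 transcription start of the gene in RefSeq, the first listed, build GRCm38.p6. Capitals mark every match, on either strand, to a searched motif. The CCAAT box was searched as its own letters, the CHR as TTTGAA, its variant TTCGAA or its variant TTTAAA, and the E2F site as TTGGCGC, its variant TTCCCGC, its variant TTGCCGC or its variant TTCGCGC. On the other strand, the box can share letters with the first E2F form. They are Cdk1 on the minus strand (chr10:69352913-69353162), Bub1b on the plus strand (chr2:118597961-118598210), Anln on the minus strand (chr9:22389207-22389456) and Mcm7 on the minus strand (chr5:138171884-138172133).
Cdk1: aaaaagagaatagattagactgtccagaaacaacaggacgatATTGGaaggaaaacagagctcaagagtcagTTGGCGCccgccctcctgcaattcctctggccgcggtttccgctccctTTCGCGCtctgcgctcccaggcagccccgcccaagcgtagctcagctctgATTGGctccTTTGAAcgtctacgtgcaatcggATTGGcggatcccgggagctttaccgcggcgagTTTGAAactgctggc
Bub1b: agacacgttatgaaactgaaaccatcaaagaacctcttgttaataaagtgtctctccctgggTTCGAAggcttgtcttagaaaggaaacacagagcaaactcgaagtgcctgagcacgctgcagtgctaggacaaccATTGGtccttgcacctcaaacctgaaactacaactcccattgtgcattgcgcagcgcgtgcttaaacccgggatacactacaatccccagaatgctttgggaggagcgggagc
Anln: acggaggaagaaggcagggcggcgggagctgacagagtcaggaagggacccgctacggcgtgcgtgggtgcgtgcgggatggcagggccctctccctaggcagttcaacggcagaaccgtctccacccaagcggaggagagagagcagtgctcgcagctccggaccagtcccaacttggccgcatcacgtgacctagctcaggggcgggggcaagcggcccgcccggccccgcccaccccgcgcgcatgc
Mcm7: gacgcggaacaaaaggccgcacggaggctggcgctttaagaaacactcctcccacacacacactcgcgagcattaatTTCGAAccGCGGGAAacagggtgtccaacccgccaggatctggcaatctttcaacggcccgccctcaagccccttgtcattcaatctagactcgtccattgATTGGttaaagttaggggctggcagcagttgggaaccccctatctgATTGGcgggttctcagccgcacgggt
The Cdk1 window held all 3 kinds of element, with CCAAT boxes 80 and 48 bases and CHR matches 71 and 15 bases before the start. Bub1b held 1 CCAAT box and 1 CHR match. Mcm7 held 1 E2F match, 2 CCAAT boxes and 1 CHR match. Most of the Mcm7 window lay inside the RefSeq span of that gene, which reaches to 138172111. The Anln and Bub1b windows overlapped their gene spans by a few bases. None of the searched letters occurred in the Anln window. Of the measured members, 34 had a promoter in the table. The CCAAT box occurred in 16 of 20 mitosis promoters and 9 of 14 replication promoters, against 34.5% of all 27025 promoters. The E2F letters occurred in 2 of 20 and 6 of 14, against 7.97% of all, and the CHR letters in 11 of 20 and 6 of 14, against 26.5%. The 4 members whose windows held all 3 kinds of element were Cdk1, Mki67, Mcm5 and Mcm7, with log2 changes of −0.30, −0.20, 0.10 and 0.25.

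The 6 MCM proteins form the ring-shaped helicase that unwinds DNA at the replication fork. Mcm7 had intensities of 485.1, 462.2 and 474.4 in transgenic prostates, against 372.7, 408.1 and 404.1 in wild-type prostates. All 3 transgenic values lay above all 3 wild-type values, by 0.25 ± 0.08 on the log2 scale (SE here and below; adjusted p 0.22). Mcm6 read 123.1, 125.8 and 132.3 in transgenic and 90.5, 114.5 and 119.9 in wild-type prostates, again without overlap, with a change of 0.21 ± 0.11 and an adjusted p of 0.48. Mcm3 did not overlap either, at 80.2, 87.4 and 97.4 in transgenic against 77.9, 72.9 and 77.9 in wild-type prostates, although the gap between the closest mice was small. Mcm3 was above the background scale defined below on 3 of 6 arrays. The other 3 subunits overlapped, with changes of 0.10 for Mcm5, −0.04 for Mcm2 and −0.05 for Mcm4. The helicase as a set thus had 4 subunits above and 2 below 0, a median change of 0.14, and no subunit past the threshold.

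The other replication factors lay close to 0. Pcna, the sliding clamp that tethers DNA polymerase, was at 626.6, 559.9 and 641.0 in transgenic and 576.4, 635.0 and 615.6 in wild-type prostates. The 2 genotypes were interleaved, the log2 change was −0.001 with a 95% interval from −0.20 to 0.20, and a second Pcna probe set gave 0.001. Cdc45 and Gins2, which join the MCM ring to make it an active helicase, changed by 0.11 and −0.05, and the origin licensing factor Cdc6 by −0.09, all with overlapping genotypes.

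The enzymes that supply deoxynucleotides did not share a direction. Tk1, the salvage kinase for thymidine, read 261.5, 243.8 and 220.2 in transgenic prostates, against 194.5, 191.9 and 194.5 in wild-type prostates. The wild-type values were almost equal and every transgenic value was higher, by 0.30 ± 0.08 on the log2 scale (adjusted p 0.20). A dimmer Tk1 probe set overlapped between genotypes and gave a change of −0.03, so the 2 probe sets of this gene disagree. Rrm2, the regulated subunit of ribonucleotide reductase, was lower without overlap, at 160.5, 144.4 and 156.3 in transgenic and 160.5, 179.0 and 191.4 in wild-type prostates. The highest transgenic value and the lowest wild-type value of Rrm2 differed only in the second decimal, and the change of −0.18 had an adjusted p of 0.47. Tyms, which makes thymidylate, was at 121.0, 116.0 and 97.2 in transgenic and 114.4, 124.7 and 147.0 in wild-type prostates, a change of −0.18 with overlap. Rrm1, the large reductase subunit, was at 231.8, 244.1 and 291.2 in transgenic and 259.7, 251.8 and 220.0 in wild-type prostates, interleaved, with a change of 0.06.

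Genes of S phase entry were variable among wild-type mice. E2f1, the transcription factor that opens the S phase programme, was at 153.2, 158.2 and 116.4 in transgenic and 104.7, 171.3 and 173.6 in wild-type prostates. Each genotype had 1 low mouse, and the change of −0.04 had a wide 95% interval, −0.49 to 0.40. Ccne1 and Ccne2, the cyclins that activate Cdk2 at the start of S phase, changed by 0.18 and −0.12 with overlapping genotypes.

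**Figure D2:**
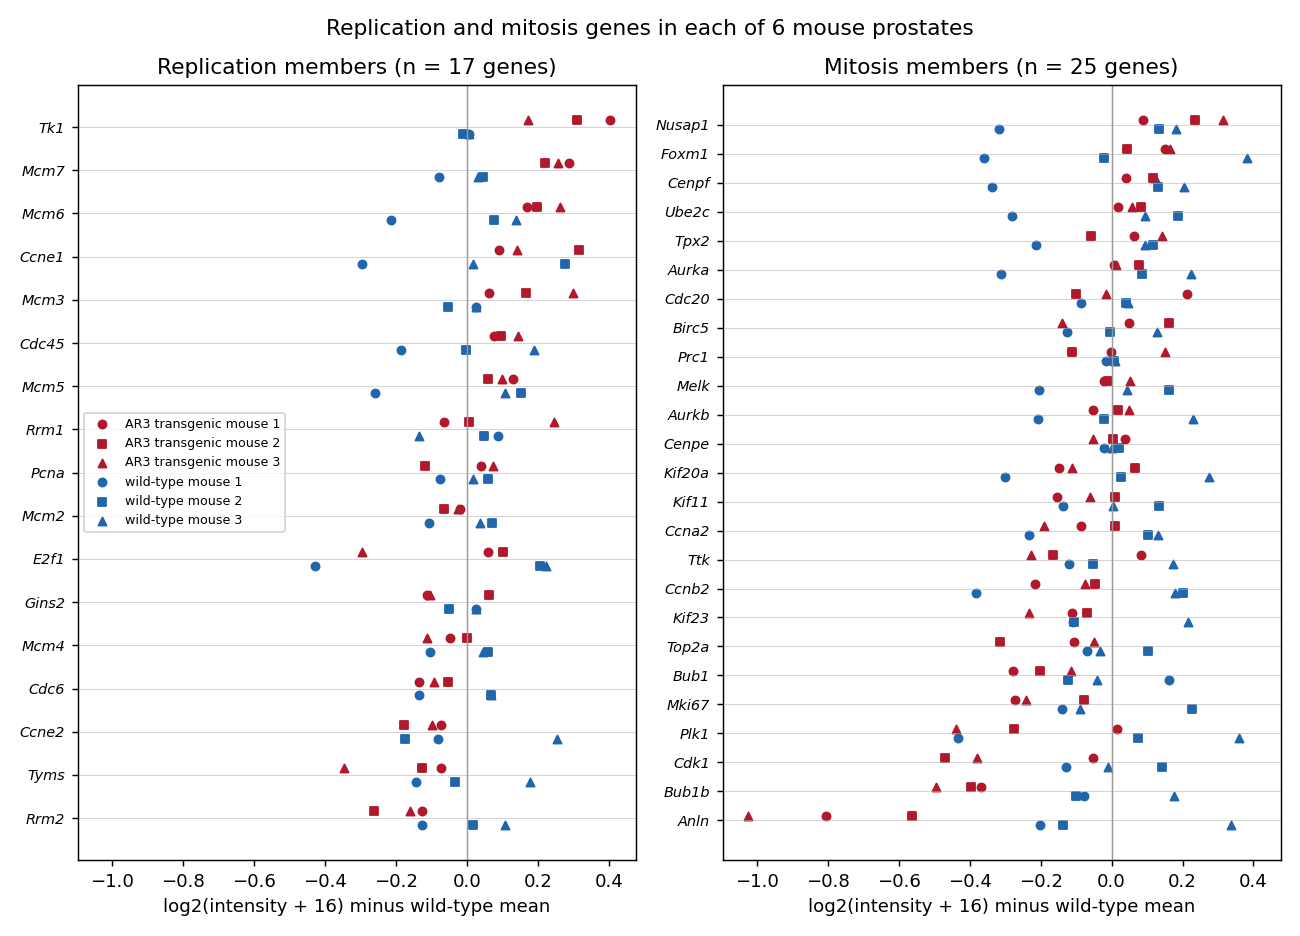
Each symbol is 1 mouse, as log2(intensity + 16) minus the mean of the 3 wild-type mice for that gene, with AR3 transgenic mice in red above wild-type mice in blue and symbol shape giving the mouse number. Transgenic Anln and Bub1b values lie left of all wild-type values, Tk1 and Mcm7 values right of them, and wild-type mouse 1 is the lowest mouse for 19 of the 42 genes.

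Among mitosis genes the widest gap was in Anln, which encodes anillin, an actin- and septin-binding scaffold of the contractile ring. Anln was at 119.3, 144.2 and 100.3 in transgenic prostates, against 190.0, 199.3 and 283.2 in wild-type prostates. Every transgenic mouse was below every wild-type mouse, with means of 121.3 ± 22.0 and 224.2 ± 51.4 (SD, n = 3 each). The log2 change was −0.80 ± 0.17 (SE), a ratio of 0.575 on that scale, with a 95% interval from −1.19 to −0.40 and an adjusted p of 0.086. The threshold was crossed in 5 of 15 alternative settings, with an adjusted p of 0.0066 after median centring, 0.027 with an intensity trend and robust variances, 0.031 with array weights, 0.045 after quantile normalization and 0.048 with an added constant of 64.

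Bub1b, the checkpoint kinase BubR1 that delays anaphase until chromosomes are attached, showed the same order. It was at 147.5, 144.4 and 133.7 in transgenic and 184.2, 181.0 and 222.6 in wild-type prostates, without overlap. Its change of −0.42 ± 0.10 had an adjusted p of 0.11, which became 0.035 after median centring and 0.045 with array weights. Its partner Bub1 was at 21.8, 23.9 and 26.4 in transgenic and 35.3, 26.1 and 28.6 in wild-type prostates, overlapping between transgenic mouse 3 and wild-type mouse 2, with a change of −0.20. The third checkpoint kinase, Ttk, changed by −0.10. Neither Bub1 nor Ttk was above the background scale defined below on any array.

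Cdk1, the kinase that drives entry into mitosis, was at 102.0, 72.3 and 78.0 in transgenic and 95.8, 118.9 and 105.4 in wild-type prostates. Transgenic mouse 1 lay above wild-type mouse 1, and the change of −0.30 ± 0.13 had an adjusted p of 0.40. Cdk1 was above the background scale defined below on 4 of 6 arrays. Its cyclin partners overlapped between genotypes, with changes of −0.11 for Ccnb2 and −0.09 for Ccna2, as did Foxm1, the factor that switches on mitotic genes, at 0.12. Plk1, a kinase of spindle assembly, ranged widely, at 129.5, 103.2 and 90.3 in transgenic and 90.7, 135.8 and 168.9 in wild-type prostates. Its change of −0.23 had a 95% interval from −0.71 to 0.24.

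The common proliferation markers were not separated by genotype. Mki67, which encodes the Ki-67 antigen of cycling cells, was at 53.1, 63.1 and 54.6 in transgenic and 59.8, 81.8 and 62.5 in wild-type prostates. Transgenic mouse 2 lay above 2 of the wild-type mice, and the change was −0.20 ± 0.12 with a 95% interval from −0.47 to 0.07. Top2a, the topoisomerase that untangles sister chromatids, was at 103.7, 87.7 and 108.6 in transgenic and 106.8, 122.4 and 109.9 in wild-type prostates, a change of −0.16 ± 0.10 with an interval from −0.38 to 0.07. A second, dimmer Top2a probe set gave −0.41 with an adjusted p of 0.48. Mki67 was above the background scale defined in the next paragraph on 1 of 6 arrays, so its interval bounds a signal near background more than the transcript.

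The remaining mitosis genes had changes between −0.14 and 0.21, all with overlapping genotypes. They were the Aurora kinases Aurka (0.03) and Aurkb (0.005), their passenger subunit Birc5 (0.02), and Melk (0.01), a kinase of the mitotic programme. The spindle motors Kif11, Kif20a and Kif23 changed by −0.07, −0.06 and −0.14, and the kinetochore proteins Cenpe and Cenpf by −0.004 and 0.09. The microtubule-binding proteins Nusap1, Tpx2 and Prc1 changed by 0.21, 0.05 and 0.01, and the anaphase-promoting complex activator Cdc20 and its ubiquitin-conjugating enzyme Ube2c by 0.03 and 0.05. Several of these genes lay near the scale of background. No detection calls were used, so the 95th percentile of 1035 olfactory receptor probe sets, 66.9 to 91.9 over the arrays, served as that scale. By it, 14 of 17 replication genes and 8 of 25 mitosis genes were above background on all 6 arrays, and 2 and 11 on none, so the small changes of dim mitosis genes say little about their transcripts.

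**Figure D3:**
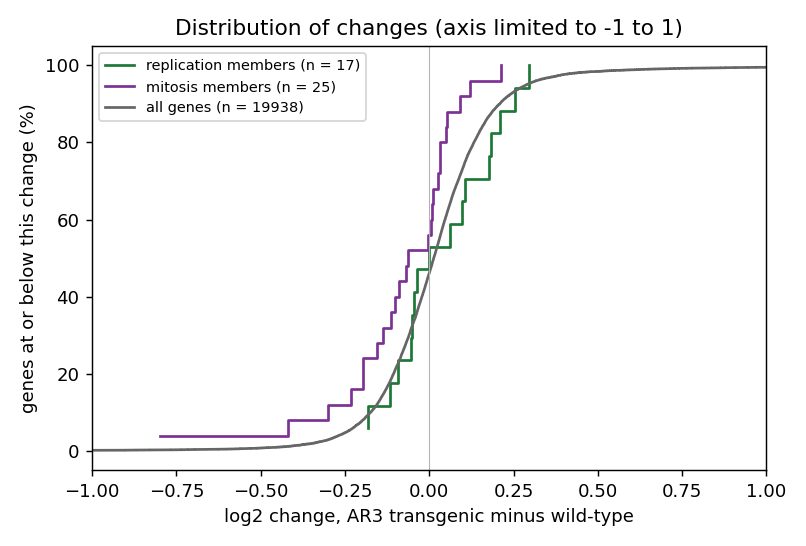
Cumulative percentage of genes by log2 change, AR3 transgenic minus wild-type, for 17 replication members, 25 mitosis members and 19938 genes, with the axis limited to changes between −1 and 1. The replication and mitosis curves cross 50% at −0.001 and −0.06, against 0.01 for all genes, and Anln is the lone member beyond −0.5.

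Averaged over each class, wild-type mice differed among themselves more than the genotypes did. The mean log2 level of the mitosis genes was 6.45, 6.44 and 6.41 in transgenic mice 1 to 3, and 6.34, 6.58 and 6.66 in wild-type mice 1 to 3. The transgenic mice were close together, and they lay between wild-type mouse 1, the lowest, and the other wild-type mice. The replication genes showed a narrower spread in the same arrangement, at 7.38, 7.39 and 7.37 in transgenic and 7.22, 7.39 and 7.42 in wild-type mice. The median SD of a member across mice was 0.10 in transgenic and 0.17 in wild-type prostates, against 0.09 and 0.13 for all genes.

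Wild-type mouse 1 gave the lowest of the 6 values for 19 of 42 members (45.2%), 11 of 25 mitosis and 8 of 17 replication genes, and also for 32.3% of all genes. That share was 36% among all genes within the members' range of mean intensity. The median intensity of wild-type mouse 1 over all probe sets was the lowest, 94.5 against 103.8 to 110.8 on the other arrays. At the other end, wild-type mouse 3 gave the highest value for 17 of 42 members (40.5%), 11 of them mitosis genes, and for 29.8% of all genes. Leaving out a wild-type mouse that is often lowest raises wild-type means by construction. Without wild-type mouse 1, 23 of 25 mitosis genes were lower in transgenic than in wild-type prostates, with a median change of −0.12, while 54.6% of all genes were lower, with a median of −0.02. For replication genes the same fit gave 10 of 17 lower and a median of −0.04. After median centring of all 6 arrays, 20 of 25 mitosis genes were lower, with a median of −0.10, beside 57.5% of all genes with a median of −0.03.

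**Figure D4:**
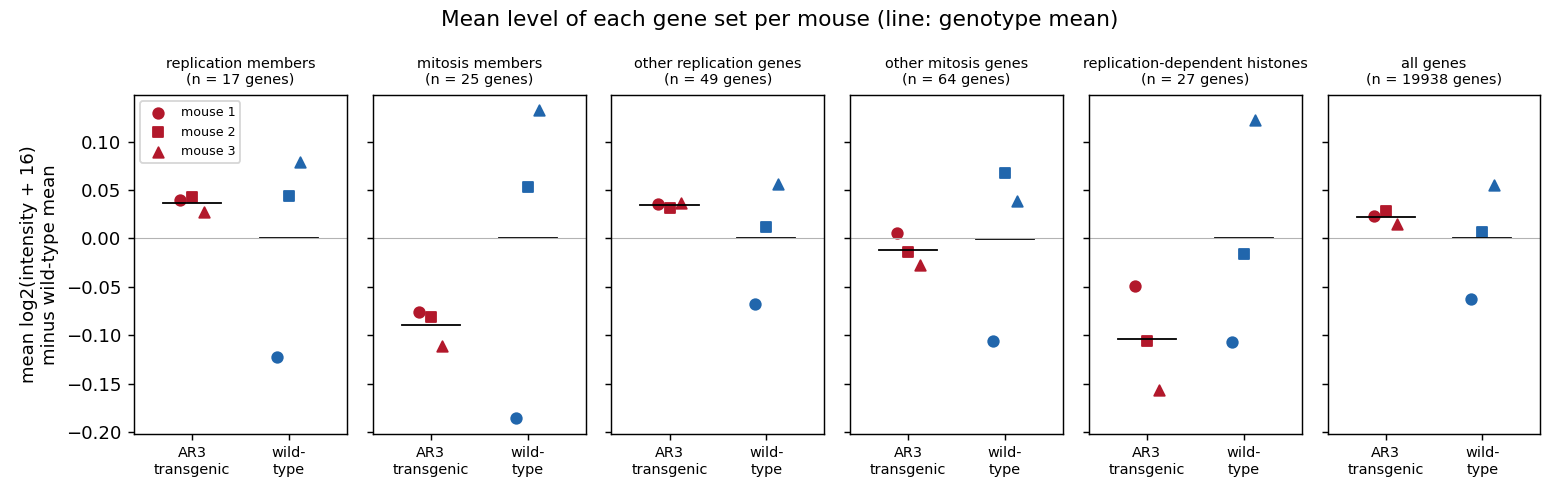
Mean log2(intensity + 16) of 6 gene sets in each mouse, minus the wild-type mean of that set, with AR3 transgenic mice left of wild-type mice, symbols for mouse number and lines for genotype means. Wild-type mouse 1 is the lowest mouse in 5 of the 6 sets, all but the histones, and the transgenic mean of the mitosis members lies 0.09 below the wild-type mean.

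Setting the classes against each other removes a shift that an array applies equally to both. Effects that depend on intensity can remain, since the median intensity was 78 for mitosis and 133 for replication genes. The mean log2 level of the mitosis genes minus that of the replication genes, a measure chosen after the values were seen and given without a test, was −0.94, −0.94 and −0.96 in transgenic mice and −0.88, −0.81 and −0.77 in wild-type mice. The genotypes did not overlap, the transgenic mice were lower, and the mean difference was −0.13. The value ran from −0.19 to −0.10 over the processing alternatives. Without Anln and Bub1b it was −0.08, with the nearest mice at −1.002 in transgenic and −0.998 in wild-type prostates. For 64 other mitosis and 49 other replication genes the same difference overlapped between genotypes, at −0.71, −0.73 and −0.74 in transgenic and −0.72, −0.63 and −0.70 in wild-type mice. All genes in the members' middle ranges of intensity, without regard to function, gave −0.81, −0.82 and −0.82 in transgenic and −0.82, −0.81 and −0.75 in wild-type mice, also overlapping.

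**Figure D5:**
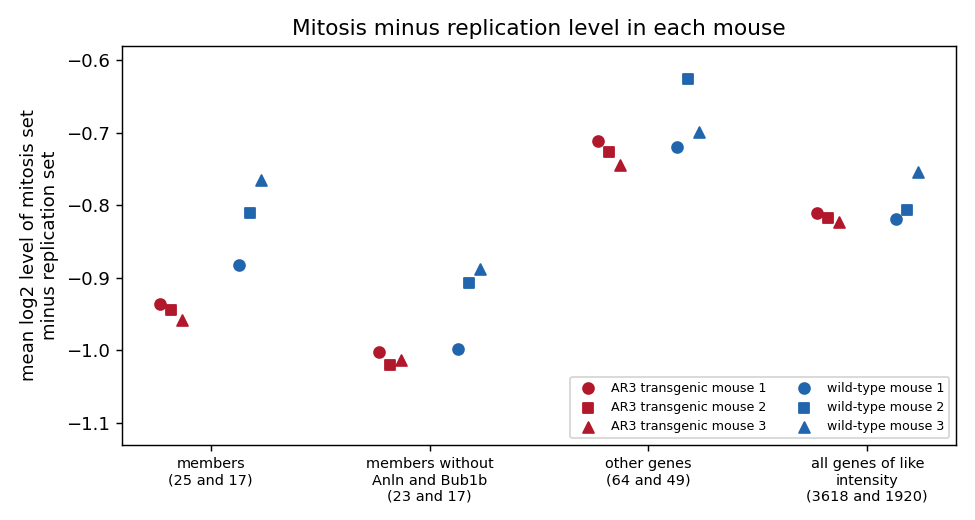
Mean log2 level of a mitosis set minus that of a replication set in each mouse, with AR3 transgenic mice in red left of wild-type mice in blue, and the number of genes in each set under the axis. The transgenic mice lie below all wild-type mice for the members, at −0.96 to −0.94 against −0.88 to −0.77, while the genotypes overlap for the other genes and for all genes of like intensity.

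Other genes of the same processes gave 1 call. Of 49 other measured replication genes, 1 was higher and 0 were lower at the threshold, beside 1.18% and 0.456% of all genes, and the median change was 0.02. At an unadjusted p under 0.05 in limma there were 8, made up of 6 higher and 2 lower, beside 12.2% of all genes. The gene past the threshold was Chaf1b, the middle subunit of the chromatin assembly factor that deposits histones behind the fork, at 150.8, 153.4 and 156.6 in transgenic and 64.7, 82.5 and 88.3 in wild-type prostates. All transgenic values were far above all wild-type values, by 0.85 ± 0.11 on the log2 scale (adjusted p 0.0074). In wild-type mice 1 and 3 Chaf1b lay below the background scale of those arrays, 66.9 and 91.9. In wild-type mouse 2 it lay little above that scale, at 77.4, so the size of the change rests on a wild-type signal near background. The call was lost by a narrow margin without transgenic mouse 2 (0.051) or transgenic mouse 3 (0.054). Fen1, the nuclease that trims Okazaki fragments, was at 156.1, 148.7 and 113.0 in transgenic and 197.4, 255.5 and 286.9 in wild-type prostates, lower without overlap, with a change of −0.75 ± 0.16 and an adjusted p of 0.082. Fen1 passed the threshold in 6 of 15 alternatives. The primase-associated polymerase subunit Pola2, named after its values were seen, had a change of 0.33 and an adjusted p of 0.11.

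Of 64 other mitosis genes 0 passed the threshold in limma and 2 had an unadjusted p under 0.05, Hmmr, a spindle protein, at −0.22 and the Cdk subunit Cks1b at −0.20. Their median change was −0.001, with 32 above and 32 below 0. Their median intensity was 66, under the lowest value of the background scale, 66.9. Hmmr read 27.6 to 39.3, below that scale on every array. Over all genes, 1.64% passed in limma and 12.2% had an unadjusted p under 0.05. Of 32 genes of the E2F, retinoblastoma, DREAM and Myb machinery and the anaphase-promoting complex, 0 passed and 4 had an unadjusted p under 0.05. The smallest p values were those of the anaphase-promoting subunit Anapc4 (0.27, called with array weights at 0.033) and the pocket protein Rbl2 (0.26). Replication-dependent histone genes, which are transcribed mainly in S phase, were measured by 27 single-gene probe sets of 62 listed symbols. None passed in limma, and 3 had an unadjusted p under 0.05. Changes were negative for 20 of 27, beside 46.1% of all genes, with a median of −0.09. H2ac15 (−0.38) and H4c9 (−0.26) had the smallest p values. Histone genes are near-identical copies, and signal shared among them was not separated.

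The tissue label was checked with 10 measured prostate markers, of which each was above the background scale in every mouse, among them probasin (Pbsn) at 8078 ± 216 in transgenic and 9343 ± 366 in wild-type prostates (SD, n = 3 each). Of this list 5 genes had changes above and 5 below 0, with a median of 0.02. Azgp1 (−1.17) and Sbp (−0.91) fell past the threshold, and the summed intensity, in which Sbp and Pbsn weigh heavily, was 37104 to 37425 in transgenic and 41421 to 42767 in wild-type mice. Sums of 8 myeloid genes did not overlap, at 807 to 967 in transgenic and 550 to 740 in wild-type mice, and all 8 changes were above 0 with 0 calls and 4 at an unadjusted p under 0.05 in limma. Sums of 7 endothelial genes were 884 to 933 in transgenic and 698 to 832 in wild-type mice, a gap that rested on Cdh5, an endothelial cadherin (0.93, adjusted p 0.0096). Without Cdh5 they were 715 to 745 in transgenic and 623 to 725 in wild-type mice, and each of the other 6 genes overlapped. Likewise, 4 urothelial genes summed to 2285 to 2815 in transgenic and 2989 to 3663 in wild-type mice, but to 978 to 1222 in transgenic and 1004 to 1141 in wild-type mice without Upk1a. Sums of 7 seminal vesicle genes ran from 1568 to 8904 in transgenic and 675 to 4767 in wild-type mice, with Svs3a lower past the threshold (−1.43, adjusted p 0.019). The list did not share a direction, with 3 changes above and 4 below 0. Pate4 was higher without overlap but not past the threshold (3.88, adjusted p 0.20). Sums of 8 fibroblast genes overlapped, at 5459 to 7889 in transgenic and 4090 to 5853 in wild-type mice. As for the myeloid genes, all 8 changes were above 0, with 0 calls and 4 at an unadjusted p under 0.05 in limma. Such a p was reached by 12.2% of all genes. The median change was 0.55 for fibroblast and 0.33 for myeloid genes. Wild-type mouse 1 was the highest wild-type mouse for the seminal vesicle, fibroblast, myeloid and endothelial sums. Lymphocyte genes, 7 in number, summed to 418 to 435 in transgenic and 363 to 454 in wild-type mice. Sums of 7 germ cell genes also overlapped, at 404 to 457 in transgenic and 405 to 478 in wild-type mice, while 1 of them, Dazl, was called higher at intensities of 52.0, 53.2 and 48.2 in transgenic and 31.5, 29.3 and 31.0 in wild-type prostates (adjusted p 0.013), all below the background scale. No marker was listed at 0, and the part of these cell types in the members' values was not tested. Over all probe sets, limma called 425 of 28944 (1.47%), 305 higher (1.05%) and 120 lower (0.415%) in transgenic prostates, while median centring gave 314 higher and 264 lower. The labels name each sample as a separate mouse, so the p-values rest on the spread between mice.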

How the data were processed

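Total RNA from dissected prostates of 6 mice was DNase-treated and labelled for whole-transcript Affymetrix arrays, per the labels' protocols. The deposited table holds 1 linear intensity per probe set and array; how it was summarised and normalized is not given in the sources used here. The intensities were not normalized again; array medians ran from 94.5 to 110.8, and median centring and quantile normalization were tried as alternatives. Of 35512 probe sets, 6568 have identifiers below the gene-level range, were judged control probe sets by what is known of this array type, and did not enter. Symbols came from the platform annotation, and 30 older symbols on the lists were matched through RefSeq synonyms. For each of 19938 genes the single-symbol probe set with the highest mean over the 6 arrays was kept.

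The model, from limma 3.58.1 (lmFit, then eBayes; R 4.3.3), compared log2(intensity + 16) between 3 AR3 transgenic and 3 wild-type arrays, two-sided and without covariates. A call required a Benjamini-Hochberg adjusted p, over all 28944 probe sets, of at most 0.05. Adding 16 shrinks changes of dim genes. The code was tested on simulated data. All measured members are named; values of every mouse are given for the 4 members of each class with the largest change, the 3 brightest of each class, and Mki67, Top2a, Pcna and E2f1 (Ccnb1 was also on that rule). Of every other pathway list, called genes and the 2 with the smallest p are named. Marker genes and other genes named beyond that were chosen after their values were seen. The members and lists were chosen with earlier results of these data known. The number of arrays limits the precision, and no array batch was used here.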

Additional observations from a re-analysis of the deposited data

How the results depend on the processing

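Results were recomputed under 15 alternatives: added constants of 1 and 64, array weights, median centring, a variance trend on intensity with robust estimation, quantile normalization, a filter on the dimmest 40% of probe sets, a replicate block on the mouse number, the removal of each mouse in turn, and the mean of all probe sets of a gene. The number of members called was 0 in all but 5 of them: it was 1 (Anln) with an added constant of 64, with quantile normalization and with the intensity trend, and 2 (Anln and Bub1b) with median centring and with array weights, in each case lower in transgenic prostates. These 5 settings, in the same order, called 570, 471, 678, 578 and 1202 of all probe sets, against 425 in the main fit. More calls were thus made over all probe sets too, not among the members alone. Leaving out any mouse gave 0. The class medians moved by less than the spread between mice in every alternative; without single mice the replication median ran from −0.04 to 0.06 and the mitosis median from −0.12 to −0.003. Of the 42 members, 17 changed sign in 1 or more settings, and none of these was called in any. The mean difference between the classes was −0.19 without the dimmest probe sets, where 28 members were left, −0.081 without Anln and Bub1b, an alternative chosen after seeing the data, and −0.16 to −0.10 without single mice. The count of called probe sets was 250 with the replicate block and 234 to 519 without single mice. No pairing by mouse number was seen, with correlations of −0.04, 0.05 and −0.16 for same-numbered mice. Differently numbered mice gave −0.14 to 0.18. With 3 mice per genotype these values cannot exclude a pairing. With the block 0 members were called. Causes of these shifts were not tested. Signal over background limits the dim mitosis genes most.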
